A study of Mus musculus with 6 samples.

Results

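The genes described here are 44 genes of the cell cycle and of DNA replication, chosen as a fixed list of symbols and matched to Ensembl identifiers among the 55421 genes of the count table. All 44 had 10 or more counts in at least 3 libraries, and all 44 entered the test. By their known roles 19 were placed in an S-phase list and 25 in a mitotic list, and the comparison set the S-phase genes beside the mitotic genes. RNA was sequenced from tumor-associated macrophages (TAMs), sorted as live CD45+CD11b+F4/80+Ly6G- cells from tumors of a mouse fibrosarcoma, labelled M17 and named MC17-51 in the methods, 15 days after implantation. There were 3 libraries from Pdcd1f/f mice, in which the gene of the receptor PD-1 is flanked by loxP sites but intact, and 3 from Pdcd1f/fLysMcre mice, in which Cre recombinase, driven by the lysozyme M promoter, deletes that gene in myeloid cells. Both genotypes carried the floxed gene and the same tumor, and the labels name no drug. The control mice had no Cre, so an effect of Cre itself or of the altered lysozyme M gene and the loss of PD-1 cannot be told apart. Mice of both sexes were used in the study, and the labels do not say whether a library came from 1 mouse or from a pool, so that p-values measure only the spread between these libraries.

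A dividing cell first licenses its replication origins with the MCM helicase, copies its DNA in S phase with newly made deoxynucleotides, and then separates the copies in mitosis under the control of cyclin-dependent kinases, the spindle checkpoint and the anaphase-promoting complex. Genes of the first wave are induced by E2F factors when the retinoblastoma protein is inactivated, and genes of the second wave later, through the MuvB complex with B-Myb and FOXM1, in part at a promoter element called the cell cycle genes homology region (CHR). Many macrophages of tumors come from monocytes, and some macrophages of tumors divide locally, so that both waves can be found in their RNA.

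The promoters of 37 of the 44 genes were matched in RefSeq (build GRCm38.p6), with 41 windows. The 250 bases before each start were searched on both strands for an E2F motif (TTTCGCGC or TTTGGCGC, which can overlap each other on opposite strands), for the CHR motif TTTGAA and for CCAAT. The E2F letters were found in 3 of 18 S-phase windows (16.7%) and in 1 of 23 mitotic windows (4.35%), against 0.654% of all 32851 windows. The CHR letters were found in 10 of 23 mitotic windows (43.5%) and in 3 of 18 S-phase windows (16.7%), against 16.0% of all windows. CCAAT was found in 20 of 23 mitotic windows (87.0%) and 13 of 18 S-phase windows (72.2%), against 33.8% of all windows. A match is only a match of letters. Of the genes with an E2F match in the S-phase list or a CHR match in the mitotic list, the one with the lowest p in the comparison of genotypes and the one with the highest level are shown, to let the 2 kinds of promoter be read side by side. Each runs 5′ to 3′ on the strand of the gene and ends at the base before the start, and capitals mark the E2F letters in Mcm5 and Mcm6 and the CHR letters in Cdc20 and Top2a.

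Mcm5, chr8:75109259-75109508, plus strand: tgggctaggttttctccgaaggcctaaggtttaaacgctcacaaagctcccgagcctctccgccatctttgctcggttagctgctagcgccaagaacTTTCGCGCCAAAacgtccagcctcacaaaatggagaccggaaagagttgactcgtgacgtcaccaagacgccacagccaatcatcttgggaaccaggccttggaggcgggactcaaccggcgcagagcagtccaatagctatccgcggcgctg
Mcm6, chr1:128359706-128359955, minus strand: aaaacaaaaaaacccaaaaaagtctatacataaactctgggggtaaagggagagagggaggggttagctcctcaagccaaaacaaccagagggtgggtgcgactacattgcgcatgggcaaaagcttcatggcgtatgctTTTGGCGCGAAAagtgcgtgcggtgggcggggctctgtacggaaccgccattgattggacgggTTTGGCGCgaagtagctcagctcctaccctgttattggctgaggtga
Cdc20, chr4:118437344-118437593, minus strand: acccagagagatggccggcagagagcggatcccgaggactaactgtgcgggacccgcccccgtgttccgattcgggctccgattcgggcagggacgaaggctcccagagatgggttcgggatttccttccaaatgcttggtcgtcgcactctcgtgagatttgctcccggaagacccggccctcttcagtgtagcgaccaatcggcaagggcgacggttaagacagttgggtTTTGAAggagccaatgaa
Top2a, chr11:99024190-99024439, minus strand: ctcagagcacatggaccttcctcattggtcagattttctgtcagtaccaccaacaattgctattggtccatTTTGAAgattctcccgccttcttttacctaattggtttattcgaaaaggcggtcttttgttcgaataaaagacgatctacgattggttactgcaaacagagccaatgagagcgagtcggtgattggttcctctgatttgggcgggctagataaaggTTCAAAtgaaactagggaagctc

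In Mcm5 the pair of overlapping E2F matches begins 153 and 149 bases before the start. Mcm6 has a like pair, which begins 110 and 106 bases before the start, and another match at 47 bases. The CHR match of Cdc20 begins 18 bases before the start, and those of Top2a begin 179 and 23 bases before it.

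The library totals lay between 41833823 and 51417209 counts, so that 3 counts were worth between 0.0583 and 0.0717 CPM, and the 44 genes had between 624 and 31328 counts in a library. Levels are given as CPM, the share of a library's counts that fell on the gene, after TMM scaling and, where genes are compared with each other, as RPKM, which also divides by the summed exon length. The lysozyme gene Lyz2, into which this Cre is inserted, ranged from 189889 to 242873 counts without Cre and from 418 to 503 counts with it. Pdcd1 had 7 to 16 counts in every library (log2 fold change -0.25, SE 0.45, adjusted p = 0.771 by edgeR), so its deletion could not be read at this depth. The sum of 4 Y-linked transcripts was 32.6 to 40.4 CPM without Cre and 133 to 153 CPM with it, and Xist, which is transcribed from the inactive X of female cells, was at 366 to 560 CPM and 181 to 279 CPM. Every library thus held both kinds of transcript, in proportions that differed by genotype, so sex and genotype cannot be told apart. Libraries also stood apart within a genotype. In Pdcd1f/f replicate 1 and Pdcd1f/fLysMcre replicate 2, genes of low GC content were high, and across 10607 genes Spearman's rho between a gene's deviation from its mean over the 6 libraries and its GC content was -0.762 and -0.700 in these 2 libraries and between 0.188 and 0.718 in the other 4. The counts of members called and the values that moved most are also given without Pdcd1f/f replicate 1. Of the markers of other cells, Cd8a (T cells), Cd79a and Pax5 (B cells), Ly6g (neutrophils) and Xcr1 (dendritic cells) had 3 counts or fewer in every library. Other markers of the same cells were present. The neutrophil markers Csf3r and Mmp8 had means of 51.08 and 49.08 CPM in Pdcd1f/f libraries, and the dendritic cell marker Ccr7 had 3.584 CPM.

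The cell cycle genes were well expressed in these TAMs. Over all 6 libraries their mean levels ran from 3.81 RPKM for Ttk to 96.8 RPKM for Pcna, with a median of 18 RPKM. The S-phase genes had a median of 14.5 RPKM and the mitotic genes of 18.8 RPKM. Among all genes tested, Ttk stood at the 49.0th percentile of the mean RPKM and Pcna at the 96.5th. Because the RNA is a bulk measure, more dividing cells and more of these transcripts per dividing cell cannot be told apart. The highest S-phase genes were Pcna, the sliding clamp of the replication fork, Mcm6 (93.7 RPKM) and Mcm4 (43.9 RPKM). The highest mitotic genes were Top2a, the topoisomerase that untangles the sister chromatids (62.4 RPKM), the B-type cyclin Ccnb2 (44.4 RPKM) and the A-type cyclin Ccna2 (38.5 RPKM).

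**Figure D1:**
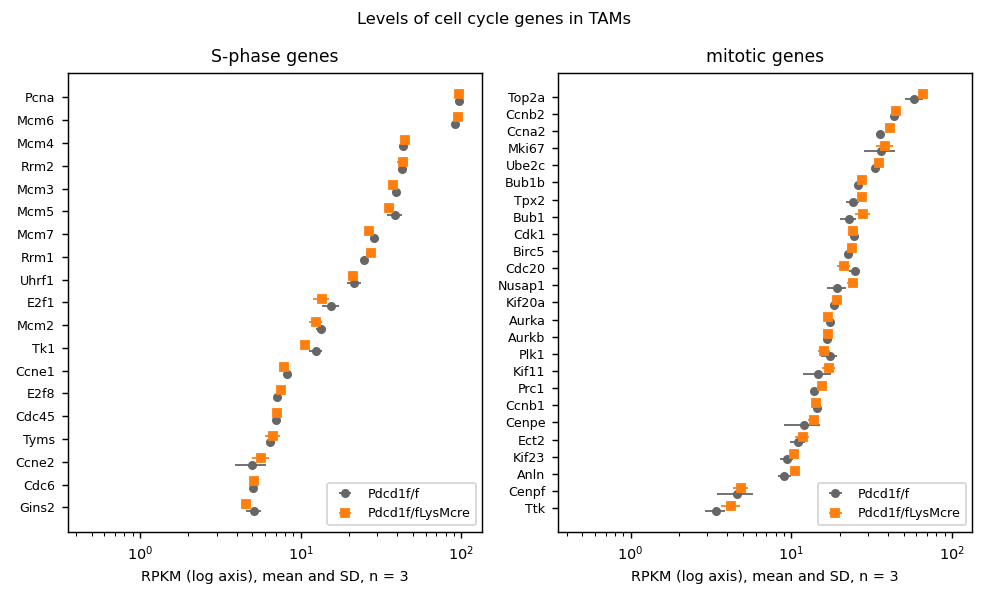
Level of each S-phase gene (left) and mitotic gene (right) in RPKM on a log axis, with the mean and SD of 3 Pdcd1f/f libraries (grey circles) and of 3 Pdcd1f/fLysMcre libraries (orange squares). The levels run from 3.81 RPKM (Ttk) to 96.8 RPKM (Pcna) over all libraries, and the symbols of the 2 genotypes lie close together for every gene.

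The first question was whether TAMs of Pdcd1f/fLysMcre mice carried more or less of these transcripts than those of Pdcd1f/f mice. No member passed the threshold of an adjusted p under 0.05 in edgeR's quasi-likelihood test, whereas 786 of the 14469 genes tested passed it (5.43%), 350 higher (2.42%) and 436 lower (3.01%) in Pdcd1f/fLysMcre TAMs. At an unadjusted p under 0.05 there were 9 members, against 24.2% of all genes tested. DESeq2 called 1 member (Nusap1, with 11.1% of all genes), DESeq2 with Storey q-values 3 (Nusap1, Bub1 and Ccna2, with 13.5%), edgeR over every gene with at least 1 count 3 (Nusap1, Bub1 and Ttk, with 7.32%) and limma-trend on the normalized values 0 (with 4.57%). The log2 fold changes of the 44 genes ran from -0.22 (Tk1 and Cdc20) to 0.33 (Nusap1), with SEs between 0.06 and 0.15, and the 95% intervals of the single genes together spanned -0.43 to 0.59. Larger changes than these lay outside the interval of every member.

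The S-phase and the mitotic genes differed in how they were spread around zero. Of the 25 mitotic genes 20 had a positive log2 fold change, with a median of 0.09, and of the 19 S-phase genes 9 had one, with a median of 0.00. Over all genes tested 49.6% were positive. In 6 mitotic genes (Ccna2, Bub1b, Ube2c, Nusap1, Kif20a and Prc1) all 3 Pdcd1f/fLysMcre libraries lay above all 3 Pdcd1f/f libraries, which 14.7% of all genes did, and in no member did they lie below, which 12.8% of all genes did. No S-phase gene was free of overlap. These counts describe genes that share the same 6 libraries, and the difference between the lists was not tested.

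**Figure D2:**
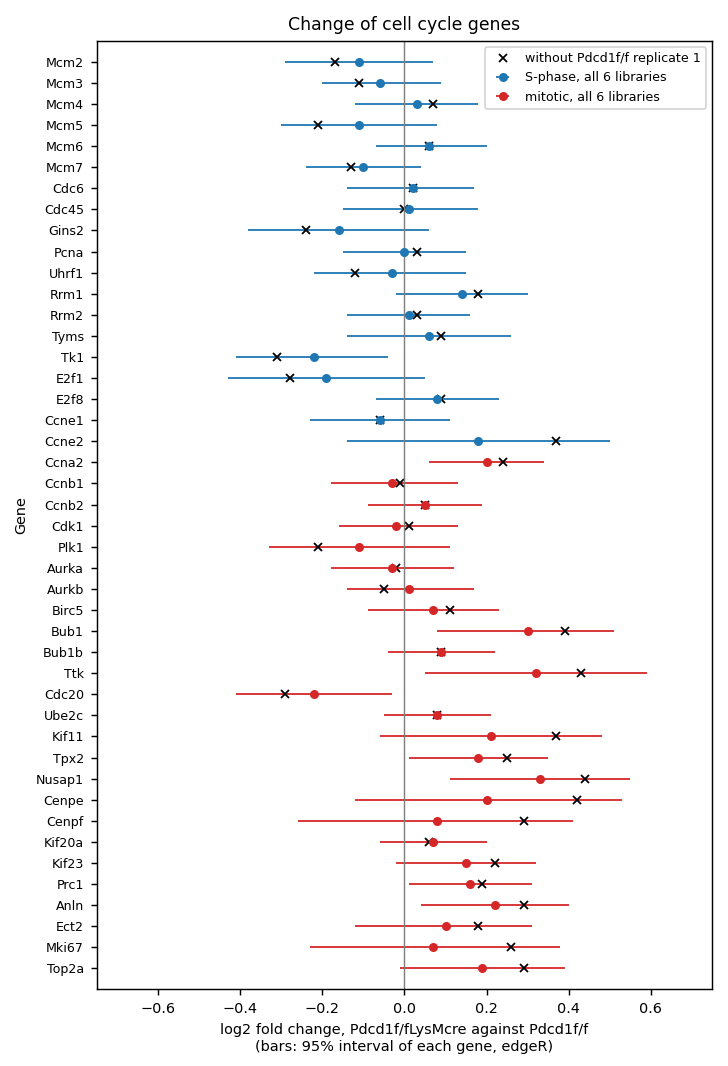
Log2 fold change of each member, Pdcd1f/fLysMcre against Pdcd1f/f, for the S-phase genes (blue) and the mitotic genes (red), with its 95% interval from edgeR over all 6 libraries, and without Pdcd1f/f replicate 1 (crosses). The values over 6 libraries run from -0.22 (Tk1 and Cdc20) to 0.33 (Nusap1), and without that library 20 of the 25 mitotic genes are on the positive side.

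Among the S-phase genes, the 6 subunits of the MCM helicase, which unwinds DNA at the fork, had log2 fold changes between -0.11 (Mcm2 and Mcm5) and 0.06 (Mcm6), with a median of -0.08. Mcm6, the most abundant of them, had 433, 434.5 and 415.8 CPM for Pdcd1f/f and 431.4, 470.7 and 437.3 CPM for Pdcd1f/fLysMcre. The 2 groups overlapped, and the interval of the log2 fold change was -0.07 to 0.20. Mcm4 had 164.6, 155.3 and 147.6 CPM against 156.4, 169.2 and 153.1 CPM, which overlapped throughout (0.03, interval -0.12 to 0.18). Mcm3 (-0.06) and Mcm7 (-0.10) had negative values that also included zero in their intervals.

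The genes that fire origins or act at the fork lay between -0.16 and 0.02. They were Cdc6, which loads the helicase, Cdc45 and Gins2, which activate it, Pcna, and Uhrf1, which carries DNA methylation to the new strand. Pcna was at 246, 230.4 and 220.5 CPM in Pdcd1f/f TAMs and at 222.6, 247.9 and 226.1 CPM in Pdcd1f/fLysMcre TAMs. The ranges almost coincided, and the log2 fold change was 0.00 with an interval of -0.15 to 0.15. Cdc6 (0.02) and Cdc45 (0.01) were as close to zero, and Gins2 (-0.16, SE 0.10) was the lowest of the 5.

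Deoxynucleotides come from ribonucleotide reductase (Rrm1 and Rrm2), thymidylate synthase (Tyms) and, by salvage, thymidine kinase 1 (Tk1). Tk1 (ENSMUSG00000025574, chr11:117815526-117826092 on the minus strand of GRCm38) had 57.48, 67.15 and 68.86 CPM for Pdcd1f/f and 53.83, 53.04 and 58.96 CPM for Pdcd1f/fLysMcre. Replicate 1 of Pdcd1f/f was below replicate 3 of Pdcd1f/fLysMcre, and the other 2 Pdcd1f/f libraries were above all 3. The log2 fold change was -0.22 (SE 0.08, adjusted p = 0.140 by edgeR). Rrm1 was at 0.14 (SE 0.07), Tyms at 0.06 and Rrm2 at 0.01.

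The regulators of the entry into S phase had values of both signs. E2f1, an activating E2F factor, had 42.64, 48.68 and 54.44 CPM in Pdcd1f/f TAMs and 43.61, 37.27 and 47 CPM in Pdcd1f/fLysMcre TAMs, which overlapped (-0.19, SE 0.11, adjusted p = 0.311 by edgeR). Ccne2, a cyclin E partner of Cdk2, had 21.79, 14.84 and 15.5 CPM against 17.81, 22.29 and 19.2 CPM, and replicate 1 of Pdcd1f/f was near the top of both groups (0.18, SE 0.15, adjusted p = 0.469). The other cyclin E gene, Ccne1, was at -0.06 and the repressor E2f8 at 0.08.

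**Figure D3:**
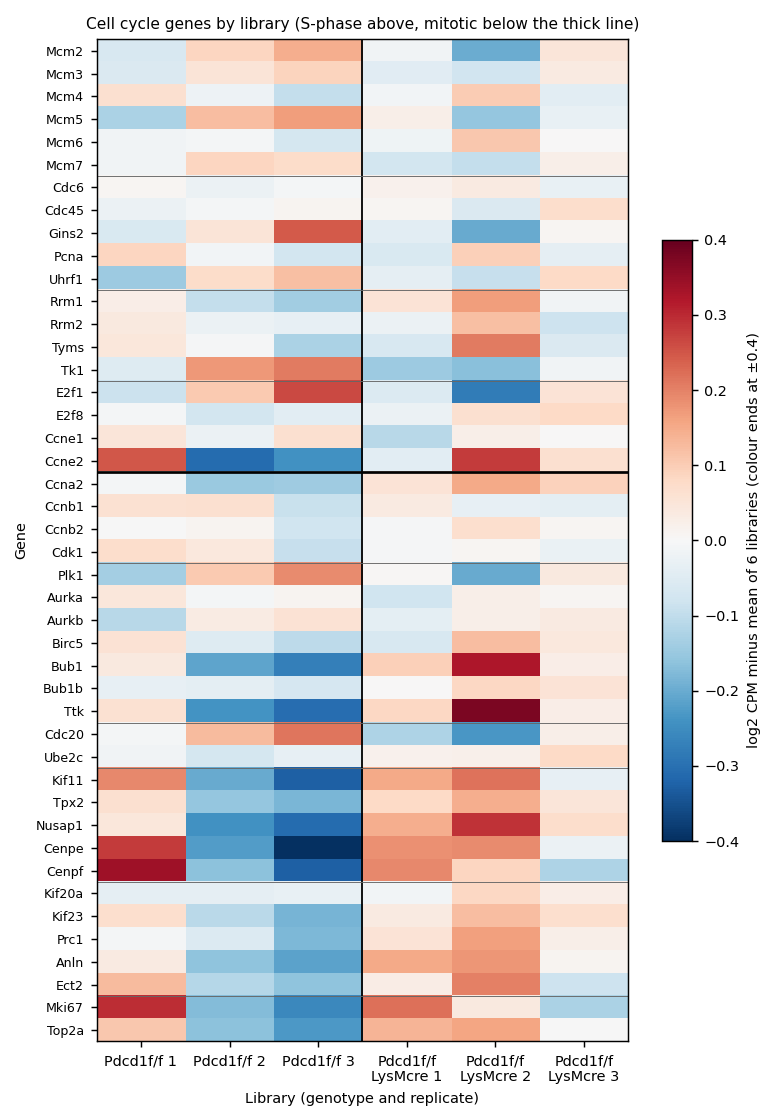
Level of each member in each of the 6 libraries, as log2 CPM minus the gene's mean over the 6 libraries, with red for higher and blue for lower, S-phase genes above the thick line and mitotic genes below it (colors end at 0.4 on either side). The red and blue blocks of Cenpe, Cenpf, Mki67 and Kif11 show Pdcd1f/f replicate 1 on the side of Pdcd1f/fLysMcre replicates 1 and 2, and Pdcd1f/f replicates 2 and 3 on the other side, with Pdcd1f/fLysMcre replicate 3.

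Among the mitotic genes, Cdk1 and its cyclins differed. Ccna2 had 155.8, 141.5 and 142.1 CPM in Pdcd1f/f TAMs and 163, 174.1 and 167 CPM in Pdcd1f/fLysMcre TAMs, with no overlap (log2 fold change 0.20, SE 0.06, adjusted p = 0.0963 by edgeR). Ccnb2 had 67.75, 68.48 and 64.25 CPM against 67.68, 71.18 and 68.19 CPM, and these overlapped (0.05, interval -0.09 to 0.19). Cdk1, the kinase itself (-0.02), and Ccnb1 (-0.03) were close to zero.

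Of the mitotic kinases and the genes of the spindle checkpoint, which holds cells until every chromosome is attached, 2 had the largest values. Ttk, the kinase that starts the checkpoint signal, had 19.32, 15.69 and 14.99 CPM in Pdcd1f/f TAMs and 19.62, 24.07 and 18.87 CPM in Pdcd1f/fLysMcre TAMs (0.32, SE 0.12, adjusted p = 0.145 by edgeR). Bub1, which Ttk recruits to the kinetochore, had 112.4, 94.62 and 90.49 CPM against 116.8, 136.8 and 111.5 CPM (0.30, SE 0.10, adjusted p = 0.106). In both genes replicate 1 of Pdcd1f/f lay just above replicate 3 of Pdcd1f/fLysMcre, and no other pair of libraries overlapped. Bub1b had no overlap, at a small size (0.09, SE 0.06). Birc5 (0.07) and Aurkb (0.01), of the chromosomal passenger complex, Aurka (-0.03) and Plk1 (-0.11) did not stand apart.

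The anaphase-promoting complex was represented by its activator Cdc20 and its ubiquitin-conjugating enzyme Ube2c, and their values had opposite signs. Cdc20 had 42.58, 46.75 and 49.7 CPM in Pdcd1f/f TAMs and 39.29, 36.47 and 43.52 CPM in Pdcd1f/fLysMcre TAMs (-0.22, SE 0.09, adjusted p = 0.156 by edgeR). Only replicate 1 of Pdcd1f/f and replicate 3 of Pdcd1f/fLysMcre overlapped. Ube2c had 88.2, 84.72 and 86.98 CPM against 90.03, 90.36 and 94 CPM, with no overlap (0.08, SE 0.06).

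The 5 genes of spindle and kinetochore movement all had positive values, between 0.08 and 0.33, with a median of 0.20. Nusap1 (ENSMUSG00000027306, chr2:119618298-119651244 on the plus strand of GRCm38), which bundles spindle microtubules, had the largest value of all members. Its levels were 90.11, 73.74 and 70.45 CPM in Pdcd1f/f TAMs and 96.48, 106.6 and 91.6 CPM in Pdcd1f/fLysMcre TAMs, with no overlap (0.33, SE 0.10, interval 0.11 to 0.55, adjusted p = 0.0748 by edgeR). The motors Kif11 (0.21) and Cenpe (0.20), the spindle assembly factor Tpx2 (0.18) and the kinetochore protein Cenpf (0.08) followed. Cenpe was at 133.4 CPM in replicate 1 of Pdcd1f/f and at 94.12 and 83.3 CPM in the other 2, so that its SE (0.15) was among the largest. Without that library the median of the 5 genes was 0.37, with Cenpe at 0.42, Kif11 at 0.37 and Cenpf at 0.29.

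The 5 genes of cytokinesis, which divides the cell body, were positive as well, between 0.07 and 0.22, with a median of 0.15. Anln, a scaffold of the contractile ring, was at 0.22 (SE 0.08, adjusted p = 0.127 by edgeR), Prc1, which builds the central spindle, at 0.16, the motors Kif23 and Kif20a at 0.15 and 0.07, and Ect2, which activates RhoA at the furrow, at 0.10. Kif20a and Prc1 had no overlap between the genotypes.

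The last 2 mitotic genes act on chromosomes. Top2a had 602.7, 499 and 476.9 CPM in Pdcd1f/f TAMs and 614.6, 624 and 558.9 CPM in Pdcd1f/fLysMcre TAMs (0.19, SE 0.09, adjusted p = 0.231 by edgeR). Mki67, the gene of the proliferation antigen Ki-67, had 455.8, 329.1 and 310.4 CPM against 432.7, 381.1 and 339.9 CPM (0.07, SE 0.14, interval -0.23 to 0.38, adjusted p = 0.777). For Mki67 the highest library of all was Pdcd1f/f replicate 1 and the 2 lowest were the other Pdcd1f/f libraries.

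A mean over each list was taken in each library, and only that of the mitotic genes showed a split like that of Mki67. For the mitotic genes, the mean of log2 CPM minus each gene's mean over the 6 libraries was 0.061, -0.087 and -0.141 for Pdcd1f/f, against 0.054, 0.104 and 0.009 for Pdcd1f/fLysMcre. Replicate 1 of Pdcd1f/f was within the range of the Pdcd1f/fLysMcre libraries, and the other 2 were below it. For the S-phase genes the means were -0.005, 0.008 and 0.030 against -0.035, -0.006 and 0.009, which overlapped. Summed over the list, the mitotic genes reached 2742 ± 287 CPM in Pdcd1f/f TAMs and 3004 ± 134 CPM in Pdcd1f/fLysMcre TAMs, and the S-phase genes 2122 ± 11.7 and 2127 ± 43.3 CPM (mean ± SD, n = 3 libraries). The S-phase sums varied far less between libraries than the mitotic sums.

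**Figure D4:**
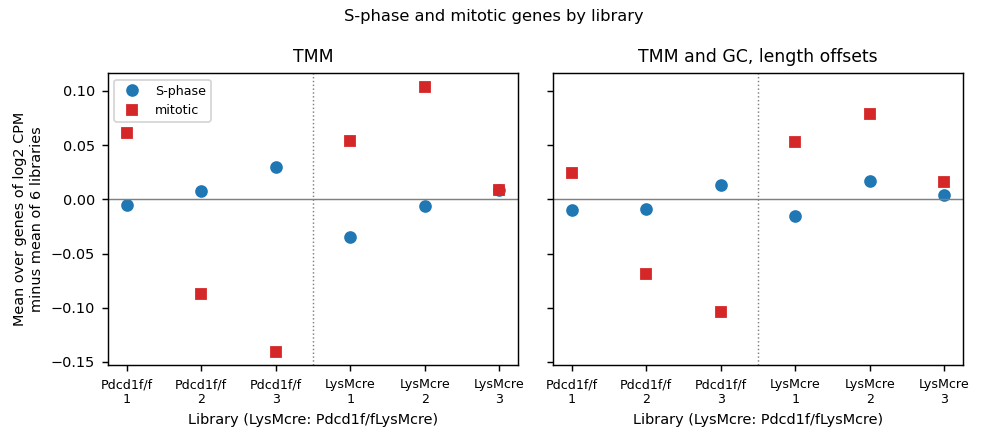
Mean over the S-phase genes (blue circles) and over the mitotic genes (red squares) of log2 CPM minus the mean of the 6 libraries, for each library, after TMM scaling (left) and with added GC and length offsets (right). With TMM the mitotic mean of Pdcd1f/f replicate 1 is 0.061, above Pdcd1f/fLysMcre replicates 1 and 3, and with offsets it is 0.024, between replicates 1 and 3.

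Without Pdcd1f/f replicate 1 the result was different. Then 16 members passed the threshold in edgeR, 13 higher and 3 lower in Pdcd1f/fLysMcre TAMs, while 3181 of 14754 genes tested passed it (21.6%), 1478 of them higher (10%) and 1703 lower (11.5%). The 12 higher mitotic genes were Ccna2, Bub1, Ttk, Kif11, Tpx2, Nusap1, Cenpe, Cenpf, Kif23, Anln, Mki67 and Top2a, and the higher S-phase gene was Ccne2. Mcm5, Tk1 and Cdc20 were lower. Of the 13 higher members, 12 lay below the median GC content of all members (47.6%). All 3 lower members lay at or above it. This fit kept Pdcd1f/fLysMcre replicate 2, in which genes of low GC content were high. The part of GC content in these calls was not tested. The median of the mitotic genes was then 0.19 and that of the S-phase genes stayed at 0.00. Among the smaller groups the median of the MCM genes was -0.12 and that of Top2a and Mki67 was 0.28. Nusap1 was at 0.44 (adjusted p = 0.00195) and Mki67 at 0.26 (adjusted p = 0.0470), the latter having been 0.07 with all libraries. Among the other members whose value moved were Ccne2 (from 0.18 to 0.37), Top2a (from 0.19 to 0.29), Ect2 (from 0.10 to 0.18) and Birc5 (from 0.07 to 0.11). Mcm2 (from -0.11 to -0.17), Mcm3 (from -0.06 to -0.11), Mcm5 with Plk1 (both from -0.11 to -0.21), Gins2 (from -0.16 to -0.24) and Uhrf1 (from -0.03 to -0.12) moved away from zero on the negative side. Mcm4 went from 0.03 to 0.07 and Tyms from 0.06 to 0.09, and Aurkb turned from 0.01 to -0.05. Leaving out one of the other 5 libraries gave 0 members each time, against 1.51% of all genes without Pdcd1f/f replicate 2, 2.38% without Pdcd1f/f replicate 3, and 1.51%, 2.5% and 3.56% without Pdcd1f/fLysMcre replicate 1, 2 or 3. Without Pdcd1f/f replicate 1 and Pdcd1f/fLysMcre replicate 2 together, 17 members passed, 13 higher and 4 lower, against 26.2% of all genes.

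The change of a member went with its GC content. The S-phase genes had a median GC content of 50.1% in their longest transcript and the mitotic genes of 46.3%. Over the 44 genes, Spearman's rho was taken between GC content and the deviation of the library from the mean of its genotype. It was -0.878 in Pdcd1f/f replicate 1, 0.609 in replicate 2 and 0.909 in replicate 3. It was 0.083, -0.818 and 0.883 across the Pdcd1f/fLysMcre libraries, in the order of their numbers. These are descriptions over genes that share the libraries. Between GC content and the log2 fold change rho was -0.780 over the 44 members and -0.497 over all genes. Of the 22 members below the median GC content 20 were positive (median 0.14), and of the 22 at or above it 9 were (median -0.03). Among the members of low GC content the mitotic genes had a median of 0.19 (15 genes) and the S-phase genes of 0.06 (7 genes), and among those of high GC content 0.03 (10 genes) and -0.08 (12 genes).

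With offsets per library for GC content and gene length, rho over the members was -0.366 and 9 members passed the threshold in edgeR, against 2809 of all genes (19.4%). The median of the mitotic genes was 0.101 with the offsets, against 0.094 without them. Over all genes tested the median was 0.031 with the offsets, against -0.003 without them. The S-phase median minus the mitotic median was -0.081, against -0.094. The 8 higher members were mitotic (Ccna2, Bub1, Bub1b, Ttk, Ube2c, Tpx2, Nusap1 and Anln; higher in 12.4% of all genes), and Tk1 was lower (7.02% of all genes). Ube2c and Cdc20 show what the offsets move: the GC content of the former is 55.5% and of the latter 55.6%, and Ube2c went from 0.08 to 0.22 and Cdc20 from -0.22 to -0.06. The part of GC content in the difference between the lists was not tested.

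**Figure D5:**
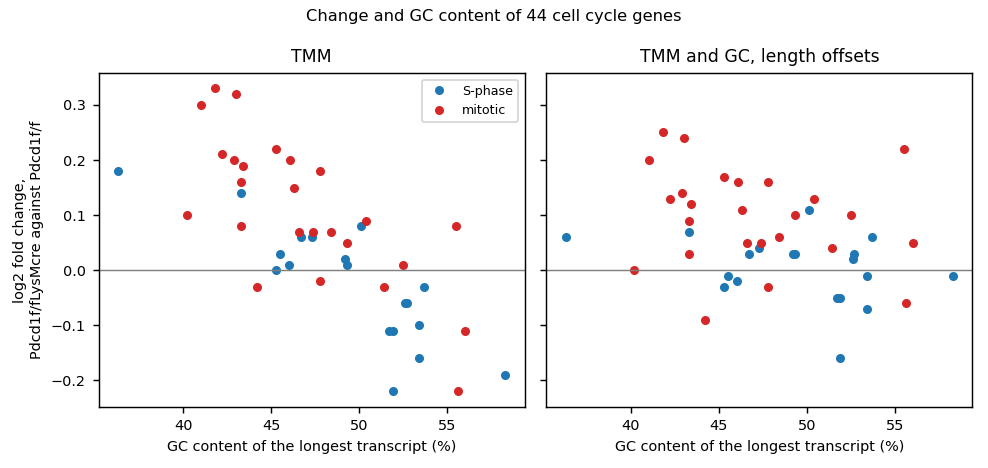
Log2 fold change of each member against the GC content of its longest transcript in percent, S-phase genes in blue and mitotic genes in red, after TMM scaling (left) and with GC and length offsets (right). On the left the values fall with GC content (rho -0.780 over 44 genes), and on the right less so (rho -0.366), with most mitotic genes above zero.

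Other genes of the pathway were taken from 7 lists with 165 genes, all tested, of which 3 passed the threshold in edgeR (against 5.43% of all genes), 1 higher (2.42% of all genes) and 2 lower (3.01%). Of the 165 genes 102 were positive, against 49.6% of all genes, with a median of 0.05. The 1 that rose was E2f3, an activating E2F factor. It had 17.72, 16.86 and 17.49 CPM in Pdcd1f/f TAMs and 22.62, 22.55 and 21.18 CPM in Pdcd1f/fLysMcre TAMs, and the genotypes were well apart (0.35, SE 0.08, adjusted p = 0.0260 by edgeR). None of the other 13 E2F, DREAM and MuvB factors passed, and the list had a median of 0.01. Foxm1 was at -0.13 and Mybl2, which encodes B-Myb, at -0.05, and neither passed. Without Pdcd1f/f replicate 1 Mybl2 was at -0.15, and over the libraries left out in turn it ran from -0.16 to 0.06.

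The 2 that fell were p53 targets, in a list of 12 genes of the p53 pathway with a median of 0.03. This list also held Trp53 (0.03), the p53 gene itself, Mdm2 (0.20) and Btg1 (0.23), and 7 of its 12 values were positive. Sesn1, which lowers mTORC1 signaling, had 26.61, 27.56 and 27.83 CPM in Pdcd1f/f TAMs and 21.23, 22.09 and 22.08 CPM in Pdcd1f/fLysMcre TAMs (-0.33, SE 0.07, adjusted p = 0.0259 by edgeR). Btg2, an antiproliferative gene, had 151.5, 157.8 and 166.1 CPM against 128.1, 138 and 129.5 CPM (-0.26, SE 0.06, adjusted p = 0.0391). Both were free of overlap. The calls of E2f3, Sesn1 and Btg2 were each kept in 13 of 20 alternatives, among them the one without Pdcd1f/f replicate 1. They were lost when any 1 of the other 5 libraries was left out, with values between 0.33 and 0.37 for E2f3, -0.31 and -0.34 for Sesn1 and -0.23 and -0.30 for Btg2.

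In the other 5 lists no gene passed in the main test over all 6 libraries. With GC and length offsets 23 of the 165 genes passed, against 19.4% of all genes, among them Ccnd2, Orc4 and Kif4. Over the 20 alternatives Ccnd2 and Kif4 were each called in 7. Without Pdcd1f/f replicate 1, 41 of the 165 genes passed, against 21.6% of all genes, among them Rbl1, Orc4, Timeless and Kif4, which are described next. The median over the 165 genes was then 0.09, that of the E2F, DREAM and MuvB factors 0.08 and that of the CDK inhibitors and pocket proteins -0.08. Among the 8 G1 cyclins and their kinases (median -0.01), Ccnd2 had the lowest p, at 6.27, 6.42 and 6.22 CPM in Pdcd1f/f TAMs and 3.39, 4.54 and 5.45 CPM in Pdcd1f/fLysMcre TAMs (-0.50, SE 0.16, adjusted p = 0.0919 by edgeR). All 3 Pdcd1f/fLysMcre libraries were below, at a low level. Among the 10 CDK inhibitors and pocket proteins (median 0.00) it was Rbl1, the p107 gene (0.18, adjusted p = 0.160 by edgeR). Cdkn1a, the p21 gene, was at -0.05, and at -0.10 without Pdcd1f/f replicate 1.

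Among 40 other genes of origin licensing and the fork (21 positive, median 0.02) the lowest p was that of Orc4, a subunit of the origin recognition complex (0.27, SE 0.10, adjusted p = 0.127 by edgeR). Among 17 genes of replication stress and recombination (12 positive, median 0.10) it was Timeless, which protects the fork (-0.25, SE 0.08, adjusted p = 0.112). Among 64 other mitotic genes 46 were positive, with a median of 0.07, or 0.12 without Pdcd1f/f replicate 1. The lowest p there was that of the chromokinesin Kif4, at 48.82, 43.23 and 41.65 CPM in Pdcd1f/f TAMs and 52.07, 57.34 and 52.64 CPM in Pdcd1f/fLysMcre TAMs, with no overlap (0.28, SE 0.08, adjusted p = 0.0704).

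Cells of other types could carry cell cycle transcripts into the sort. The summed level of 12 markers of tumor cells or fibroblasts was 550.6 to 608.8 CPM in Pdcd1f/f and 579.7 to 702.9 CPM in Pdcd1f/fLysMcre libraries, and 1 of the 10 tested was lower in edgeR's test. Fn1 made up most of this sum, with a mean of 497.2 CPM in Pdcd1f/f and 576.7 CPM in Pdcd1f/fLysMcre libraries, and it did not pass the test. That of 10 macrophage markers was 8179 to 9499 CPM and 7166 to 7623 CPM, and 5 of these 10 fell in edgeR's test. The 4 monocyte markers summed to 347.1 to 379 CPM and 318.9 to 381.7 CPM, and the 7 neutrophil markers to 139 to 142.8 CPM and 116.5 to 119.4 CPM, and 1 monocyte and 2 neutrophil markers were lower in that test. The 6 markers of dendritic cells summed to 5.255 to 6.82 CPM in Pdcd1f/f and, without overlap, to 6.966 to 8.328 CPM in Pdcd1f/fLysMcre libraries, and none of the 4 that were tested passed. The markers of T or NK cells summed to 2.106 to 2.521 CPM and 1.983 to 2.433 CPM, and those of endothelial cells to between 19.49 and 20.81 CPM. The sum of the 5 B cell markers, with values not given here, did not overlap between the genotypes, and the 1 marker tested did not pass. The part of any of these cells in the values of the members was not tested.

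By the annotation, 14 of the 44 genes share exon bases with another gene, 11 of them with a protein-coding gene on the opposite strand. The longest such stretches were 2758 bases between Gins2 and Gse1 and 1271 bases between Kif20a and Cdc23, and those of the members with the largest values were shorter (172 bases between Nusap1 and Oip5, 83 between Tk1 and Afmid, 53 between Cdc20 and Elovl1). The libraries were made with a stranded kit, but the strand setting of the counting was not given in the sources used here, so reads of both genes may be mixed there. Pcna, Tyms, Ccnb1 and Ccnb2 have named pseudogenes, and their counts are uncertain to that extent.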

How the data were processed

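TAMs from 3 Pdcd1f/f and 3 Pdcd1f/fLysMcre mice or pools were measured by stranded polyA RNA-seq with paired-end reads. The authors' pipeline, per the submitters' processing notes, used cutadapt 2.5, STAR 2.7.3a on GRCm38 and featureCounts (Subread 1.6.2), and they deposited raw counts per Ensembl gene, which are whole numbers without normalization. A second deposited table, of 16552 genes, holds a normalized signal, which the authors made by dividing the counts by 1 DESeq2 size factor per library (0.895 to 1.08). How strand and multi-mapped reads were treated is not given in the sources used here.

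Counts were tested with edgeR 4.0.16 in R 4.3.3 (filterByExpr with a minimum count of 10 and total of 15, TMM, robust glmQLFit, two-sided glmQLFTest, genotype as the only term), and p-values were adjusted by Benjamini and Hochberg over all 14469 tested genes, with calls at an adjusted p under 0.05. DESeq2 1.42.0, limma 3.58.1, offsets from a loess fit on GC content and length (span 0.5), the replicate number as a block and libraries left out were alternatives. The replicate numbers come from the labels alone. CPM and RPKM are TMM-scaled, and lengths, GC content and symbols are from GENCODE M21 (GRCm38). Depth was 41833823 to 51417209 counts per library, and the common biological coefficient of variation was 8.92%. The scripts were tested on simulated data. Values in every library were given for members past the threshold, the 3 largest absolute log2 fold changes and the 3 highest mean RPKM of each list, and each pathway list was represented by its genes past the threshold or by the one with the lowest p. Values given in every library for Cdc20, Ube2c and Mki67, the values of Foxm1, Mybl2 and Cdkn1a, and other values of single libraries, were added after they were seen. The members and lists were chosen with earlier results of these data known.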

Additional observations from a re-analysis of the deposited data

How the results depend on the processing

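Over 20 alternatives, no log2 fold change of a gene past the threshold changed sign. For the 52 genes with results here there were 1040 alternative values, of which 937 stayed on the same side of the threshold, 82 newly passed it and 21 no longer did, and 15 genes, all without a call in the main test, had values of both signs. The count of members called was 0 in the main test and 3 with all genes that had at least 1 count. It was 1 with DESeq2 and 3 with DESeq2 and Storey q-values. With GC and length offsets it was 9, with or without the replicate block, and with 1 library left out 0 to 16. Without Pdcd1f/f replicate 1 and Pdcd1f/fLysMcre replicate 2, in which genes of low GC content were high for their genotype, it was 17. The count over all genes, 786, was 1951, 1599, 1950, 2809 (2919 with the block), 222 to 3181 and 3757 under the same alternatives, 283 at an adjusted p under 0.01 and 193 for a fold change above 1.2. The count over the pathway lists, 3, was 16, 6, 9, 23 (25 with the block), 0 to 41 (41 without Pdcd1f/f replicate 1) and 51, and 0 under both stricter thresholds. The cause of these moves was not tested.

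The median of the S-phase genes was 0.019 with either kind of offsets and -0.034 to 0.012 with 1 library left out. It was -0.028 without Pdcd1f/f replicate 1 and Pdcd1f/fLysMcre replicate 2 together. That of the mitotic genes was 0.065 to 0.190 with 1 library left out, with the highest value without Pdcd1f/f replicate 1, and the S-phase median minus the mitotic median was then -0.192 to -0.073, against -0.094 in the main test. Without Pdcd1f/fLysMcre replicate 3 these were 0.150 and -0.175, and without Pdcd1f/f replicate 1 and Pdcd1f/fLysMcre replicate 2 together 0.152 and -0.180. Pdcd1f/f replicates 2 and 3, kept in the last fit, had rhos of 0.518 and 0.707 between GC content and the deviation from their genotype's mean. Pdcd1f/fLysMcre replicates 1 and 3, also kept, had rhos of 0.188 and 0.718. The replicate numbers did not pair the libraries (correlations of same-numbered libraries -0.083, -0.376 and 0.637), and with the replicate block 1 member, Nusap1, was called, and 1027 genes in all. At 41833823 counts or more per library every member had 624 counts or more, and with 3 libraries against 3 the SE of a member was 0.06 to 0.15.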
